A study of Homo sapiens with 6 samples.

Results

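The genes described here are 10 members of the ErbB and MET signalling system: the receptors EGFR, ERBB2 and ERBB3, the EGF-family ligands AREG, EREG, HBEGF and TGFA, the feedback inhibitor ERRFI1, and the receptors MET and MST1R. They were taken by gene symbol from a table of 58735 rows, in which each of the 10 symbols occurs in 1 row. All 10 passed the filter on low counts, as did 15244 rows in all. RNA was sequenced from ACHN, a human renal cancer cell line grown in medium with 10% serum, in 2 groups of 3 libraries. The OTUD1 siRNA group was transfected with a small interfering RNA against OTUD1, which encodes a deubiquitinase, and the control siRNA group with a control siRNA. The titles of the 3 OTUD1 siRNA libraries carry the mark of the same siRNA, whose sequence, dose and time of action the sources used here leave unstated. Nothing in the labels says that libraries of the same group were separate cultures, and the p-values therefore speak of the spread among these 6 libraries, which may be technical.

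ErbB receptors are tyrosine kinases of the cell surface that pair up when a ligand of the EGF family binds. The ligands are made as membrane-anchored precursors and are released by metalloproteases, and the paired receptors signal through RAS and ERK and through PI3-kinase. ERBB2 has no known ligand of its own, ERBB3 has a weak kinase and signals in pairs, and ERRFI1 (also called MIG6) is induced by EGFR signalling and binds and blocks the kinase. MET, the receptor of hepatocyte growth factor, and MST1R (RON), the receptor of macrophage-stimulating protein, form a separate receptor family with much of the same signalling downstream. EGFR and MET are both known to be active in renal tubule epithelium and in renal cancer.

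Total counts ran from 17243433 to 21013530 in the OTUD1 siRNA libraries and from 16753495 to 18993534 in the control siRNA libraries. Levels are in CPM, the count over the library total after TMM scaling, a correction for differences in composition, and a gene was called when its adjusted p in edgeR's quasi-likelihood test was under 0.05. OTUD1 itself had 28, 17 and 25 counts in the OTUD1 siRNA libraries, against 61, 67 and 65 counts in the control siRNA libraries, 3.22-fold lower (log2 fold change -1.69 with an SE of 0.24, edgeR adjusted p = 4.37e-07). Of 9 renal epithelial markers, 6 were lower and 2 higher (EPCAM and KRT19) after OTUD1 siRNA. Their summed level was 3611 to 3732 CPM with OTUD1 siRNA, against 6739 to 6990 CPM with control siRNA. Most of that sum was the keratins KRT8 (mean 1957 CPM with OTUD1 siRNA, 4112 CPM with control siRNA) and KRT18 (726 CPM with OTUD1 siRNA, 1604 CPM with control siRNA). The nephron factor PAX8 was present throughout, at a mean of 408.5 CPM with OTUD1 siRNA and 642 CPM with control siRNA, while the epithelial cadherin CDH1 was scarce, at 1.29 CPM with OTUD1 siRNA and 1.79 CPM with control siRNA. The leukocyte markers PTPRC, CD3E, MS4A1 and LYZ had 0 counts in every library, and the summed level of that list of 10 was 1.44 to 2.11 CPM with OTUD1 siRNA and 1.75 to 1.93 CPM with control siRNA. Only 2 of the 10 were tested. CD8A was called higher on few counts, 16, 12 and 11 with OTUD1 siRNA and 4, 4 and 1 with control siRNA (edgeR adjusted p = 0.00485). CD14 was not called. The 14 fibroblast and endothelial markers summed to 174 to 187 CPM with OTUD1 siRNA and 307 to 318 CPM with control siRNA, most of it THY1, with the endothelial gene KDR at 0 in every library. Of the 5 tested, 2 were higher (ACTA2 and PDGFRB) and 2 lower (THY1 and ENG). The part of these shifts in the results below was not tested. In bulk RNA, fewer cells that express a gene and less RNA per cell cannot be told apart.

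After OTUD1 siRNA, 5 of the 10 genes were lower and 3 were higher. The inhibitor ERRFI1, the ligand HBEGF and the receptors MET and EGFR fell, and the ligand TGFA fell by a small amount. The ligands EREG and AREG rose, as did the receptor ERBB2 by a small amount, while ERBB3 and MST1R did not pass the test. Across all genes tested, 60.4% were called, 29.3% as higher and 31.1% as lower, so calls were common in these libraries. Of these calls 48.45% were higher, and with library totals in place of TMM scaling, which moves the median of all genes up by 0.13 on the log2 scale, 64.2% were. Among the 10 genes 30% were called higher, a share at the background, and 50% lower, which on a count of 10 sets nothing apart. The values of the 2 groups did not overlap for 8 of the 10 genes, compared with 64.5% of all genes tested. The median log2 fold change was -0.13 over the 10 genes and 0.01 over all genes tested.

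**Figure D1:**
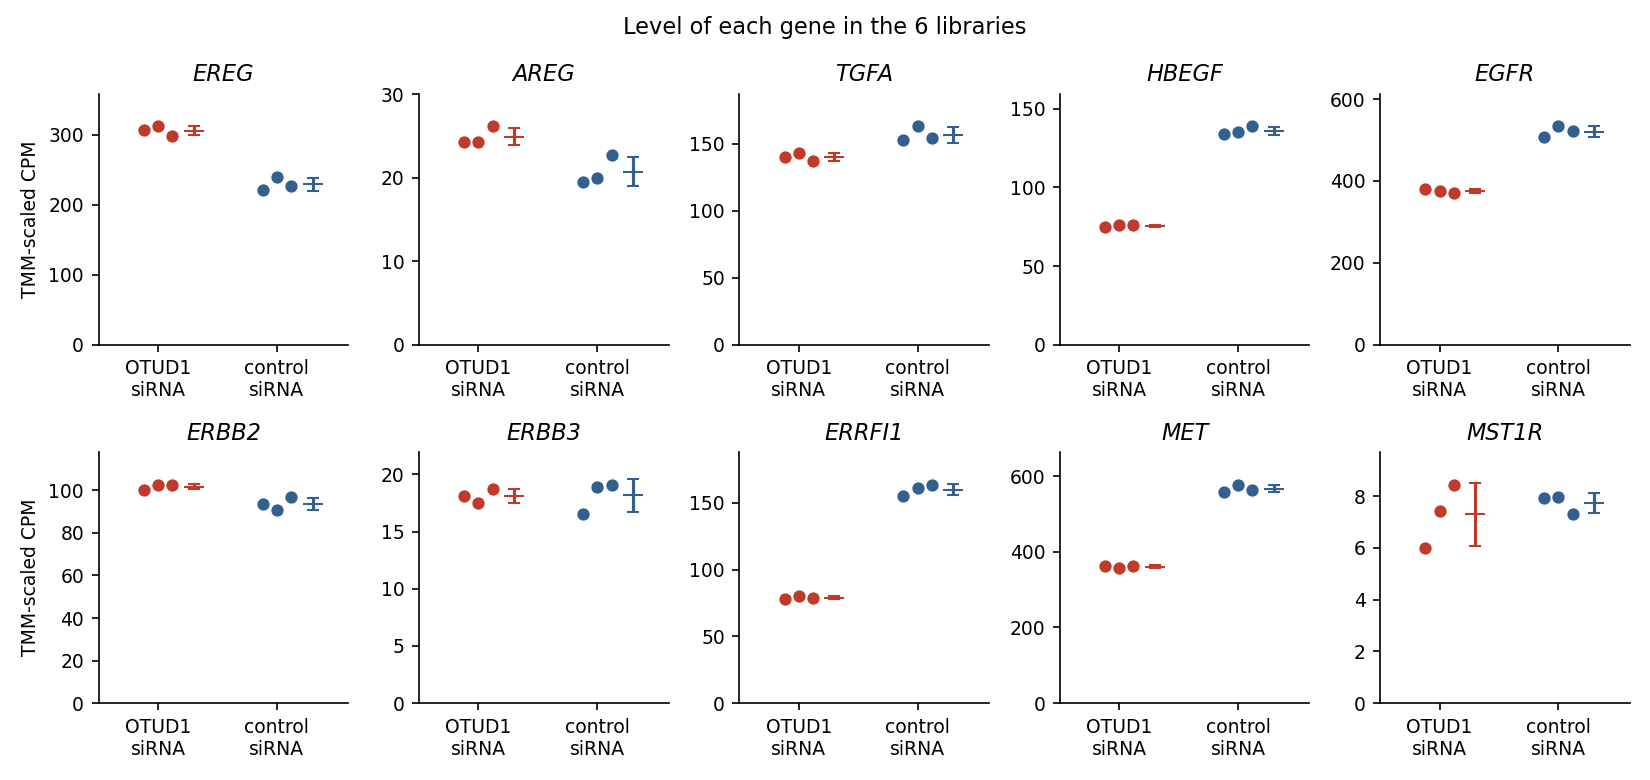
Level of each gene in TMM-scaled CPM (vertical axes, each from 0) in the 3 OTUD1 siRNA libraries (red, left) and the 3 control siRNA libraries (blue, right), with the mean and SD beside the points. The OTUD1 siRNA points lie below all control siRNA points for HBEGF, TGFA, EGFR, ERRFI1 and MET, above them for EREG, AREG and ERBB2, and overlap them for ERBB3 and MST1R.

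Among the ligands, epiregulin (EREG; ENSG00000124882.3; hg38 chromosome 4, 74365143 to 74388751, plus strand) binds EGFR and ERBB4. It stood at 307, 312.5 and 299 CPM in the OTUD1 siRNA libraries, against 221, 240 and 227 CPM in the control siRNA libraries. Every OTUD1 siRNA library lay above every control siRNA library. EREG was 1.335-fold higher (log2 fold change 0.42 with an SE of 0.035, edgeR adjusted p = 2.19e-11), and 20.5% of all genes tested rose by more. Amphiregulin (AREG; ENSG00000109321.10; chromosome 4, 74445134 to 74455009, plus strand), which binds EGFR, was at 24.3, 24.3 and 26.2 CPM with OTUD1 siRNA and at 19.5, 19.9 and 22.7 CPM with control siRNA. The groups again did not overlap, although the step between their nearest libraries, 24.3 and 22.7 CPM, was no wider than the SD of the control siRNA libraries, 1.735 CPM. AREG was 1.2-fold higher (log2 fold change 0.26 with an SE of 0.078, edgeR adjusted p = 0.00468), and 29% of genes tested rose by more.

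HBEGF and TGFA went the other way. Heparin-binding EGF-like growth factor (HBEGF; ENSG00000113070.7; chromosome 5, 140332843 to 140346631, minus strand) binds EGFR and ERBB4. It was at 74.8, 75.8 and 76 CPM in the OTUD1 siRNA libraries, against 134, 135 and 139 CPM in the control siRNA libraries. The gap between the groups was far wider than the spread within either. HBEGF was 1.8-fold lower (log2 fold change -0.85 with an SE of 0.041, edgeR adjusted p = 8.50e-17), and 5.43% of genes tested fell by more. TGFA (ENSG00000163235.15; chromosome 2, 70447280 to 70554193, minus strand), transforming growth factor alpha, which binds EGFR, was at 140, 143 and 137 CPM with OTUD1 siRNA and at 152.5, 163 and 154 CPM with control siRNA. It was 1.12-fold lower (log2 fold change -0.16 with an SE of 0.038, edgeR adjusted p = 0.000652). This call depended on the scaling: the log2 fold change of TGFA was -0.032 (edgeR adjusted p = 0.487) with library totals and -0.037 (limma adjusted p = 0.419) after quantile normalization.

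Ratios between genes of the same library are the same under TMM scaling and library totals, since each applies a single factor to a whole library. With 3 libraries a group, an exact permutation test cannot give a p below 0.1, so these ratios are given as values. Per kilobase of exon, EREG stood at 2.14 ± 0.056 times HBEGF with OTUD1 siRNA and at 0.891 ± 0.04 times HBEGF with control siRNA (SD, n = 3 each). The order of these ligands was thus opposite in the 2 groups. HBEGF per TGFA was 0.887 ± 0.022 with OTUD1 siRNA and 1.43 ± 0.06 with control siRNA, and EREG per TGFA was 1.897 ± 0.0047 with OTUD1 siRNA and 1.27 ± 0.013 with control siRNA. None of these 3 ratios overlapped between the groups. EREG per AREG, the pair that rose, was 3.55 ± 0.22 with OTUD1 siRNA and 3.205 ± 0.3 with control siRNA, and there the groups overlapped. Of the length-scaled level of the 4 ligands together, EREG made up 43.9% ± 0.61 with OTUD1 siRNA and 31% ± 0.75 with control siRNA, and HBEGF made up 20.5% ± 0.26 with OTUD1 siRNA and 34.85% ± 0.73 with control siRNA (SD, n = 3 each). The TMM-scaled sum of the 4 ligands was 120.9 to 123 CPM per kilobase with OTUD1 siRNA and 125.5 to 132 CPM per kilobase with control siRNA. Unlike the ratios and shares, this sum depends on the scaling. The TMM factors were 1.045 to 1.046 with OTUD1 siRNA and 0.955 to 0.957 with control siRNA. The small difference in the sum is within what the choice of scaling moves, so no direction is read from it. Other EGFR ligands are outside this sum and these shares, among them the neighbours of EREG and AREG described next.

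EREG and AREG lie next to each other on the long arm of chromosome 4, among EGF-family ligand genes, with epigen (EPGN) on one side and betacellulin (BTC) on the other. In GENCODE 29 the gaps are 49.8 kb from EPGN to EREG, 56.4 kb from EREG to AREG and 290 kb from AREG to BTC. The other 2 annotated genes of this stretch are antisense RNAs with at most 3 counts in any library. EPGN and BTC, both EGFR ligands, fell while their neighbours rose. EPGN was at 33.7, 30.4 and 29.2 CPM with OTUD1 siRNA and at 47.8, 47.9 and 49.7 CPM with control siRNA (log2 fold change -0.64 with an SE of 0.062, edgeR adjusted p = 5.14e-10). BTC was at 4.74, 5.76 and 5.11 CPM with OTUD1 siRNA and at 12, 10.7 and 11.1 CPM with control siRNA (log2 fold change -1.11 with an SE of 0.12, edgeR adjusted p = 5.89e-09). Within each library, EREG per EPGN was 3.13 ± 0.21 with OTUD1 siRNA and 1.5 ± 0.077 with control siRNA, and AREG per EPGN was 0.887 ± 0.096 with OTUD1 siRNA and 0.47 ± 0.029 with control siRNA (SD, n = 3 each, per kilobase of exon). Neither ratio overlapped between the groups.

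**Figure D2:**
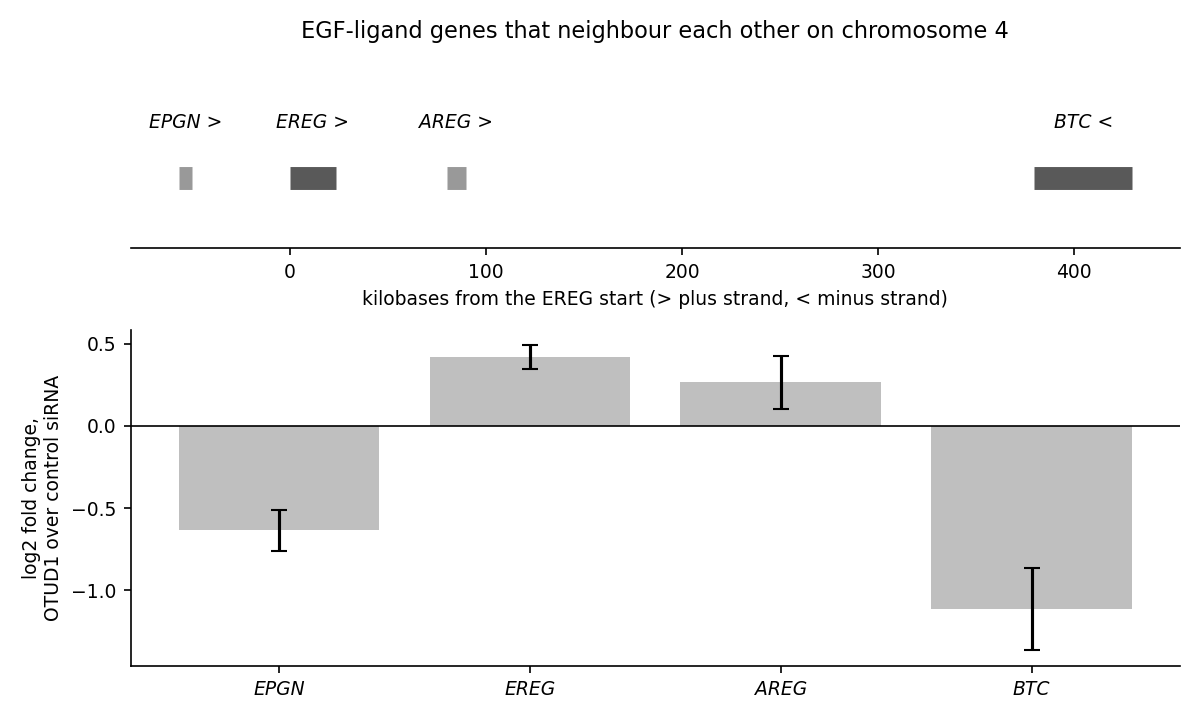
Top, positions of EPGN, EREG, AREG and BTC in kilobases from the EREG start, with the strand of each; bottom, their log2 fold changes, OTUD1 siRNA over control siRNA (bars from 0, lines the 95% intervals of the edgeR fit). The inner pair, EREG and AREG, is above 0 (0.42 and 0.26) and the outer pair, EPGN and BTC, is below 0 (-0.64 and -1.11).

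The promoters of the ligand pair that rose and of ERRFI1 and HBEGF, the members that fell most, are shown here, because these 4 genes include the largest rise and the largest falls, over positions -130 to 20 around the annotated start. They were read from RefSeq (GRCh38.p14), whose promoter table matched 9 of the 10 genes. EREG is chr4:74365015-74365164 on the plus strand, AREG chr4:74445006-74445155 on the plus strand, ERRFI1 chr1:8026290-8026439 on the minus strand and HBEGF chr5:140346584-140346733 on the minus strand. Capitals mark matches, on either strand, to TATAAA (a form of the TATA box), TGACGTCA (the cAMP response element), TGANTCA (the AP-1 site), GGGCGG (the GC box) and CCGGAAG (the ETS core).
EREG: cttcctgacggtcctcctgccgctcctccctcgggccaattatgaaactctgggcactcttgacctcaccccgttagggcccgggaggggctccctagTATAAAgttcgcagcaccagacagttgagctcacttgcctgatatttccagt
AREG: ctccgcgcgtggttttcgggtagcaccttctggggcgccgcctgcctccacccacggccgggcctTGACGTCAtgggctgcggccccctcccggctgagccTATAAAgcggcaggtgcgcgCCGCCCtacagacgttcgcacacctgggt
ERRFI1: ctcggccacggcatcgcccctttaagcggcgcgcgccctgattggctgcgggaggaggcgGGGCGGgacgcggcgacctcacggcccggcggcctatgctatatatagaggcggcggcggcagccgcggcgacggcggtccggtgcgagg
HBEGF: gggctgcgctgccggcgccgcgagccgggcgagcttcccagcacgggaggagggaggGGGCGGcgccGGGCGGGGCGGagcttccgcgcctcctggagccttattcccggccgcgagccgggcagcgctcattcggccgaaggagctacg

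Counts of motifs refer to the window of 250 bases before to 50 after the first start that the table lists for a gene. TATAAA was present in EREG, with its first base at position -32, and in AREG, at -29, and in none of the other matched genes there. Of all 27305 promoters in that table, 12% hold it. Only the exact letters TATAAA were counted. The stretch shown for ERRFI1 holds tatatata, a TATA-like run that this search leaves unmarked, so these counts do not tell which genes lack a TATA box. TGACGTCA was found in AREG only, at position -65, and is held by 1.98% of promoters. HBEGF had 5 matches to GGGCGG, of which 3 lie in the stretch shown and 2 overlap, and no TATAAA, and ERRFI1 had 1 match to GGGCGG. That motif was present in 7 of the 9 genes and in 44.6% of all promoters. The AP-1 letters were in ERBB2 alone of the 9 (7.76% of all promoters), and CCGGAAG was in ERBB2 and MST1R (10.7%). A match describes the letters of the window and shows no binding.

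Of the ErbB receptors, EGFR fell and ERBB2 rose by a small amount. EGFR (ENSG00000146648.17; chromosome 7, 55019021 to 55211628, plus strand), the receptor that EREG, AREG, HBEGF and TGFA all bind, was at 381.5, 376 and 371 CPM in the OTUD1 siRNA libraries, against 507, 534 and 522 CPM in the control siRNA libraries. The groups were well apart. EGFR was 1.38-fold lower (log2 fold change -0.47 with an SE of 0.03, edgeR adjusted p = 6.31e-14), and 16.3% of genes tested fell by more. After quantile normalization its log2 fold change was -0.25, still called (limma adjusted p = 6.58e-08).

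ERBB2 (HER2; ENSG00000141736.13; chromosome 17, 39687914 to 39730426, plus strand), the preferred partner of the other ErbB receptors, was at 100.2, 102 and 103 CPM with OTUD1 siRNA and at 93.4, 90.6 and 96.6 CPM with control siRNA. The groups did not overlap, but the difference was small, 1.09-fold (log2 fold change 0.12 with an SE of 0.042, edgeR adjusted p = 0.015). Without control siRNA replicate 2 the call was lost (log2 fold change 0.1, edgeR adjusted p = 0.0594), and with library totals the log2 fold change was 0.25, with quantile normalization 0.23. ERBB2 shares 571 exon bases with MIEN1 and 194 with PGAP3, both on the opposite strand. Since the strand setting of the counting is unstated, its count is uncertain by those stretches. MIEN1 had 946, 930 and 697 counts with OTUD1 siRNA and 759, 657 and 779 counts with control siRNA, and its log2 fold change was -0.0069 (edgeR adjusted p = 0.945). The exon overlaps of EGFR and ERRFI1 are with antisense RNAs of at most 18 counts in any library.

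ERBB3 (HER3; ENSG00000065361.15; chromosome 12, 56076799 to 56103505, plus strand), the neuregulin receptor, was at 18.1, 17.5 and 18.7 CPM with OTUD1 siRNA and at 16.5, 18.9 and 19.1 CPM with control siRNA. Its groups overlapped, and its log2 fold change of -0.0072 had a 95% interval of -0.18 to 0.17 (edgeR adjusted p = 0.948). The direction of so small a value changed with the setting. Within the library, ERBB2 per EGFR was 0.328 ± 0.0085 with OTUD1 siRNA and 0.218 ± 0.011 with control siRNA (SD, n = 3 each, per kilobase of exon), with no overlap. EGFR made up 71.7% ± 0.54 of the length-scaled level of the 3 receptors with OTUD1 siRNA and 79% ± 0.65 with control siRNA, and their sum was 41.65 to 42.2 CPM per kilobase with OTUD1 siRNA and 51.4 to 53.5 CPM per kilobase with control siRNA. ERBB4, the remaining family member, had at most 7 counts in any library and was not tested.

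ERRFI1 (ENSG00000116285.12; chromosome 1, 8004404 to 8026308, minus strand), the inhibitor, had the largest change of the 10 genes under TMM scaling. It was at 77.9, 80.2 and 78.8 CPM in the OTUD1 siRNA libraries, against 155, 161 and 163.5 CPM in the control siRNA libraries. The lowest control library was well above the highest OTUD1 siRNA library. ERRFI1 was 2.025-fold lower (log2 fold change -1.02 with an SE of 0.04, edgeR adjusted p = 8.59e-19), and 3.35% of genes tested fell by more. Set against the receptor it inhibits, ERRFI1 per EGFR was 0.628 ± 0.015 with OTUD1 siRNA and 0.918 ± 0.018 with control siRNA (SD, n = 3 each, per kilobase of exon), and the groups did not overlap.

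MET (ENSG00000105976.14; chromosome 7, 116672390 to 116798386, plus strand) was at 361, 358 and 364 CPM with OTUD1 siRNA and at 558.5, 577 and 564 CPM with control siRNA. The libraries of a group agreed closely, with a coefficient of variation of 0.757% with OTUD1 siRNA and 1.68% with control siRNA. MET was 1.57-fold lower (log2 fold change -0.65 with an SE of 0.029, edgeR adjusted p = 1.72e-17), and 9.85% of genes tested fell by more. After quantile normalization its log2 fold change was -0.41, still called (limma adjusted p = 1.47e-11). EGFR per MET was 0.586 ± 0.011 with OTUD1 siRNA and 0.517 ± 0.0055 with control siRNA, without overlap.

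MST1R (ENSG00000164078.12; chromosome 3, 49887002 to 49903873, minus strand), the relative of MET, was scarce. It had 132, 150 and 152 counts in the OTUD1 siRNA libraries and 127, 145 and 125 counts in the control siRNA libraries, or 6.02, 7.45 and 8.44 CPM, against 7.95, 7.99 and 7.3 CPM. The groups overlapped, and replicate 1 of the OTUD1 siRNA group was the lowest library. The log2 fold change was -0.09 with a 95% interval of -0.36 to 0.18 (edgeR adjusted p = 0.561), which does not exclude a change of either sign within that range. Without OTUD1 siRNA replicate 1 it was 0.034.

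**Figure D3:**
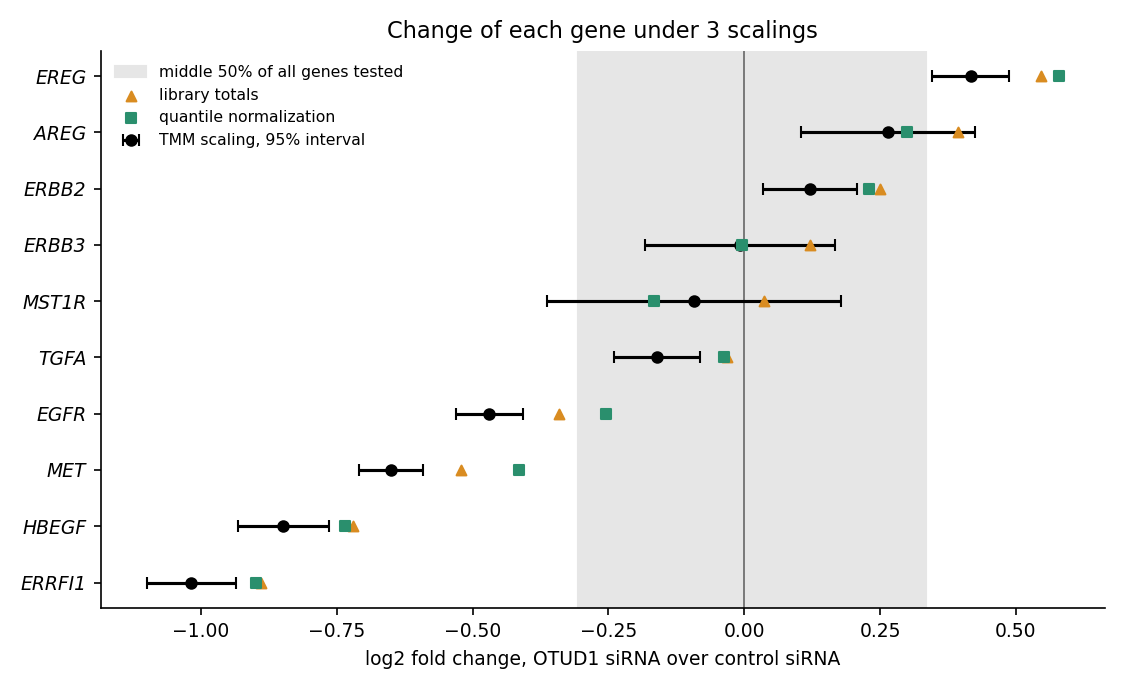
Log2 fold change of each gene, OTUD1 siRNA over control siRNA (horizontal axis), with TMM scaling (black, lines the 95% interval of the edgeR fit), library totals (triangles) and quantile normalization (squares); the grey band holds the middle 50% of all genes tested (-0.31 to 0.33). ERRFI1, HBEGF and MET lie left of the band and EREG right of it under all 3 scalings, while TGFA moves close to 0 under 2 of them.

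Per kilobase of annotated exon, the 10 genes covered a wide range of levels. With OTUD1 siRNA the order from high to low was EREG (53.6 ± 1.2 CPM per kilobase, SD, n = 3), MET (51.3 ± 0.39), EGFR (30.05 ± 0.42), TGFA (28.2 ± 0.61), HBEGF (25 ± 0.22), ERRFI1 (18.9 ± 0.28), AREG (15.1 ± 0.65), ERBB2 (9.85 ± 0.12), ERBB3 (2 ± 0.066) and MST1R (1.39 ± 0.23). No neighbours in that order overlapped. With control siRNA it was MET (80.5 ± 1.4), HBEGF (45 ± 0.88), EGFR (41.6 ± 1.1), EREG (40.1 ± 1.7), ERRFI1 (38.2 ± 1), TGFA (31.6 ± 1.1), AREG (12.6 ± 1.1), ERBB2 (9.06 ± 0.29), ERBB3 (2.01 ± 0.16) and MST1R (1.47 ± 0.073). There EGFR and EREG overlapped, as did EREG and ERRFI1. MET was thus the highest of the 10 with control siRNA and EREG with OTUD1 siRNA. Scaled this way, 95.65% of genes tested had a lower mean level than MET and 93.5% a lower one than EREG, while 34.5% were below ERBB3 and 28.35% below MST1R. With the length of the longest transcript in place of all exons, ERBB2 ranked above AREG in both groups and ERRFI1 above EREG with control siRNA.

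**Figure D4:**
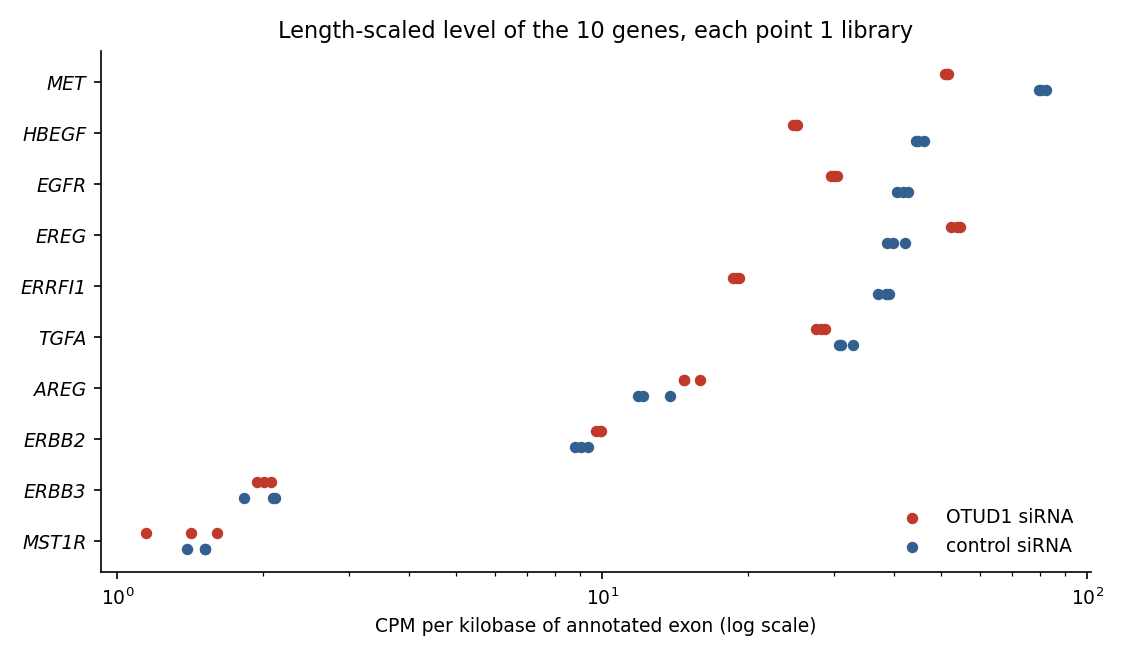
Level of each gene in CPM per kilobase of annotated exon (horizontal axis, log scale), each point 1 library, with the OTUD1 siRNA libraries (red) above the control siRNA libraries (blue) in each row. MET leads with control siRNA (80.5) and EREG with OTUD1 siRNA (53.6), and ERBB3 and MST1R are lowest in both groups.

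The genes most alike in profile to the member that rose most and the one that fell most were found by the distance between mean-centred log2 CPM profiles over the 6 libraries, among 11013 genes with a mean of at least 5 CPM. For EREG they were the pseudogene PDIA3P1, CD164 and CCNG1, with log2 fold changes of 0.42, 0.40 and 0.41. For ERRFI1 they were MT1M, CRIM1 and NAV3, with log2 fold changes of -1.01, -0.99 and -1.01. With 2 groups of libraries, genes that share the size of a fold change rank high by this measure.

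Other genes of the system were read from lists, whose counts stand beside 29.3% higher and 31.1% lower over all genes tested. Of 8 other EGF-family genes, 4 were tested, with a median log2 fold change of -0.36: BTC, EPGN and NRG1 were called lower and NRG2 was not called (log2 fold change 0.24, edgeR adjusted p = 0.0905). NRG1, the neuregulin that binds ERBB3 and ERBB4, was at 149 ± 0.48 CPM with OTUD1 siRNA and 159 ± 3.3 CPM with control siRNA (log2 fold change -0.09). Its call was lost under 6 other settings. It was also not called with library totals (edgeR adjusted p = 0.340) or after quantile normalization (limma adjusted p = 0.346), where its log2 fold change was above 0 (0.040 each). EGF itself had 3 to 7 counts in the OTUD1 siRNA libraries and 3 in each control siRNA library, and was not tested.

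Of 11 genes for the release of ligands from the membrane, 10 were tested, of which 5 were lower and 3 higher (median log2 fold change -0.22). ADAM10, the sheddase of EGF and BTC, fell 1.46-fold, to 153 ± 2 CPM with OTUD1 siRNA, against 224 ± 4.1 CPM with control siRNA. The rhomboid protease RHBDL2 fell 2.32-fold (3.68 ± 0.48 CPM with OTUD1 siRNA, 8.57 ± 0.75 CPM with control siRNA), while the metalloprotease ADAM15 rose 1.38-fold and nardilysin (NRDC), an enhancer of ectodomain shedding, rose by 0.32 on the log2 scale. ADAM17, the main sheddase of HBEGF, AREG, EREG and TGFA, named here for that role after its values had been seen, was at 95.3, 95.1 and 97.8 CPM with OTUD1 siRNA and 118, 122 and 118 CPM with control siRNA (log2 fold change -0.31, edgeR adjusted p = 9.34e-08).

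Of 22 adaptors and first signalling steps below the receptors, all tested, 11 fell and 5 rose (median log2 fold change -0.15). GAB1, the docking protein of MET and EGFR, was 1.97-fold lower (19.2 ± 1.2 CPM with OTUD1 siRNA, 37.7 ± 0.78 CPM with control siRNA). The adaptor CRKL fell 1.48-fold and the adaptor GRB2 1.3-fold, whereas GAB2 rose 1.38-fold and the phosphatase PTPN11 (SHP2) 1.2-fold. With library totals 6 genes of this list fell, and after quantile normalization 9 rose. Of all 15244 genes tested, 3456 were called lower with library totals and 4749 higher after quantile normalization.

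Of 20 tested genes of receptor endocytosis, turnover and inhibition, 12 fell and 5 rose (median log2 fold change -0.21). PTPN1 (PTP1B), a phosphatase that acts on EGFR and MET, fell 2.2-fold, to 33.5 ± 0.28 CPM with OTUD1 siRNA, against 73.7 ± 2.2 CPM with control siRNA. CD2AP, which links the ubiquitin ligase CBL to endocytosis, fell 1.58-fold, while the endocytic adaptor EPN1 rose 1.68-fold and STAMBP (AMSH), a deubiquitinase of endosomes, rose 1.49-fold.

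Of 13 genes around HGF and macrophage-stimulating protein, 9 were tested, of which 4 fell and 1 rose (median log2 fold change -0.17). HGF had 15 to 30 counts in the OTUD1 siRNA libraries and 15 to 17 in the control siRNA libraries and was not called (edgeR adjusted p = 0.288). CD44, of which some forms act as a coreceptor of MET, fell 1.79-fold, to 453 ± 9.5 CPM with OTUD1 siRNA, against 809 ± 14 CPM with control siRNA, and the semaphorin SEMA4D, whose receptor PLXNB1 can bind MET, fell 1.56-fold. PLXNB2 (log2 fold change -0.2) and RANBP9 (-0.17) were called lower but lost the call with library totals and after quantile normalization. PLXNB1 was called higher (log2 fold change 0.25) and lost the call without OTUD1 siRNA replicate 3 and without control siRNA replicate 2, which left 0 genes of the list called higher. RANBP9 also lost its call with a minimum mean of 5 CPM and without control siRNA replicate 2.

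Of 14 tested genes known to respond to ERK signalling, 10 fell (71.4%, against 31.1% of all genes tested) and 2 rose (14.3%, against 29.3%), with a median log2 fold change of -0.44, against 0.01 over all genes tested. The ETS factor ETV5 fell 2.7-fold, to 18.9 ± 0.54 CPM with OTUD1 siRNA, against 51.1 ± 0.55 CPM with control siRNA, and FOSL1, an AP-1 subunit, fell 1.96-fold. DUSP5, a phosphatase of nuclear ERK, rose 1.77-fold, to 545 ± 0.84 CPM with OTUD1 siRNA, against 308 ± 3.8 CPM with control siRNA, and the early response gene IER3 rose 1.45-fold. Earlier results of these data were known when this list was drawn up, so its direction is no independent evidence.

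**Figure D5:**
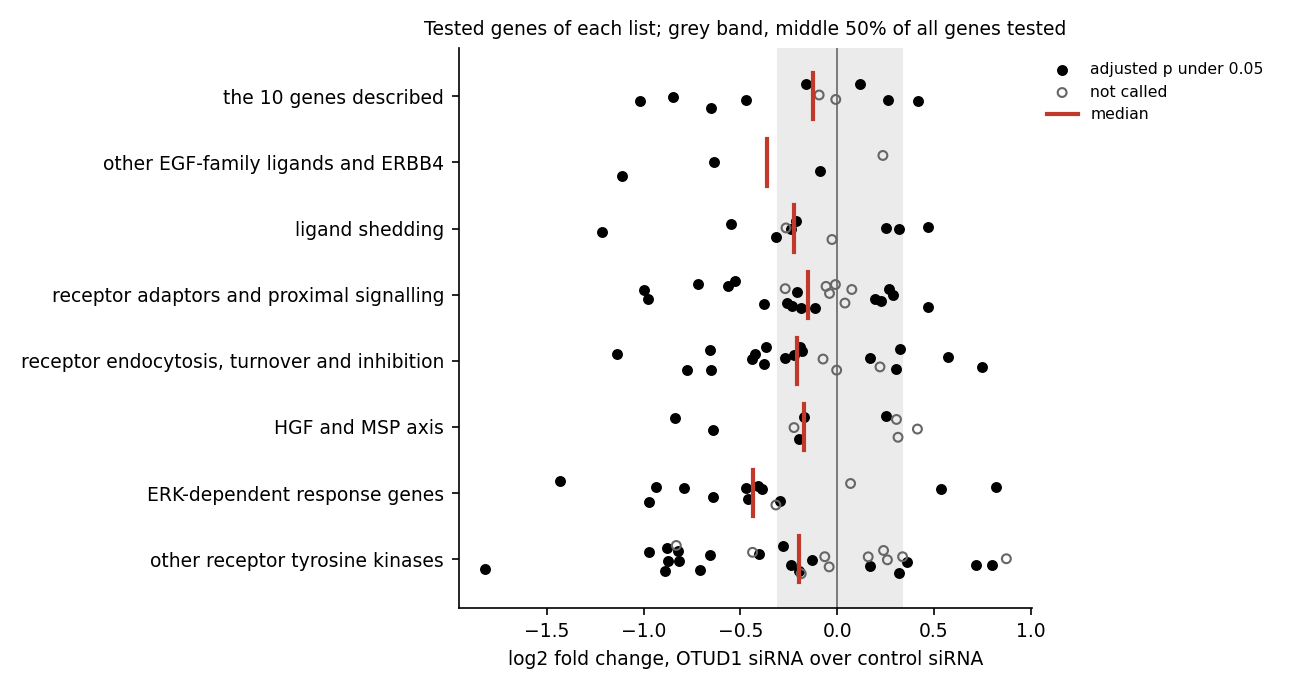
Log2 fold change, OTUD1 siRNA over control siRNA, of every tested gene in each list (points, filled where adjusted p was under 0.05), with the median of each list (red line) and the middle 50% of all genes tested (grey band, -0.31 to 0.33). The medians run from -0.44 for the ERK-dependent genes to -0.13 for the 10 genes described, and genes lie on both sides of 0 in every list.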

How the data were processed

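Each row of the deposited table gives a gene symbol and, for the 6 libraries, a whole number. Although the table is named for FPKM, the values the authors deposited behave as raw counts: they are whole, and their totals differ by library. The build is hg38, per the submitters' processing notes. Trizol RNA went into libraries made with a kit that keeps strand, per the labels' protocols. Aligner, counter, strand setting and annotation are unstated in the sources used here.

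The counts were fitted with edgeR 4.0.16 (R 4.3.3). filterByExpr asked for 10 counts at the median depth in 3 libraries and 15 in all. TMM scaling, glmQLFit and glmQLFTest followed, and two-sided p-values were adjusted by Benjamini and Hochberg's method over 15244 genes. An SE is the fold change divided by the root of its F value. No library was a copy of another: within a group the mean chi-square per gene was 2.06 to 3.8. A count of 3 is 0.137 to 0.188 CPM. Gene IDs, exon lengths and coordinates came from GENCODE 29 by symbol, promoters from RefSeq (Python 3.11.15). Alternatives used limma 3.58.1 with a prior count of 2, DESeq2 1.42.0, other filters and scalings, the replicate number as a block, and each library left out in turn.

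The members and lists were chosen with earlier results of these data known. The genes named from a list are at most 4 called genes, taken by smallest adjusted p, and at most 2 called genes that went against the majority of the list. ADAM17, NRG2, HGF, EGF and ERBB4 were added for their role. A gene that this rule takes is not reported here. Symbols shared by several rows (1745 rows) occur in none of the lists.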

Additional observations from a re-analysis of the deposited data

How the results depend on the processing

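Over 15 other settings, the log2 fold changes of EGFR, AREG, EREG, HBEGF, ERRFI1 and MET kept their direction and their call. ERBB2 and TGFA kept their direction and lost the call under 1 and 2 settings. ERBB3, never called, had a log2 fold change of 0.041 with a minimum mean of 5 CPM, 0.12 with library totals and -0.072 to 0.030 with 1 library left out. MST1R, never called, had 0.036 with library totals and -0.20 to 0.034 with 1 library left out. Among counts of called genes, the other EGF-family genes had 1 higher with a minimum mean of 5 CPM and with library totals, and 0 to 1 with 1 library left out. The adaptors had 9 higher after quantile normalization and 6 lower with library totals. The HGF and macrophage-stimulating protein genes had 2 higher and 2 lower with library totals, and 0 to 1 higher with 1 library left out. The cause was not tested, except that library totals move the median of all genes by 0.13 on the log2 scale: 64.2% of all calls were then higher, against 48.45% with TMM scaling.

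The correlation of deviations from the group mean between libraries of the same replicate number was -0.023, 0.018 and -0.018. Since the spread within groups was small, such values do not show whether these libraries shared a culture or a batch. With the replicate number as a block, 3 of the 10 genes were called higher and 5 lower, as without it, and OTUD1 had a log2 fold change of -1.69. OTUD1 ran from -1.83 to -1.50 over 14 settings, and with a minimum mean of 5 CPM it had no value because it was filtered out. With the block, 4484 genes in all were higher and 4791 lower. Counts of EGF and ERBB4 were too low for the test. For MST1R, with 125 to 152 counts a library, depth and the spread among libraries were not separated.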

Other observations

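Outside the ErbB and MET families, 29 of 48 other receptor tyrosine kinase genes were tested, of which 14 fell (48.3%, against 31.1% of all genes tested) and 5 rose (17.2%, against 29.3%) after OTUD1 siRNA, with a median log2 fold change of -0.2. Receptors of ephrins, ligands anchored on neighbouring cells, were among both. EPHA7 fell 3.54-fold, to 9.16 ± 0.28 CPM with OTUD1 siRNA, against 32.4 ± 1.3 CPM with control siRNA (log2 fold change -1.82 with an SE of 0.083, edgeR adjusted p = 2.69e-17). EPHA2 fell 1.85-fold and EPHB2 1.63-fold, while EPHB4 rose 1.285-fold. FGFR1, a receptor of fibroblast growth factors, fell 1.77-fold, to 427 ± 7.7 CPM with OTUD1 siRNA, against 754.5 ± 22 CPM with control siRNA. PDGFRB, a receptor of platelet-derived growth factors, rose 1.74-fold, to 7.96 ± 0.96 CPM with OTUD1 siRNA, against 4.56 ± 0.89 CPM with control siRNA.

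The 7-letter words CAAACAA and AAACAAA, which occur 2 times and 1 time in the OTUD1 mRNA of GENCODE 29, were counted in 3′ UTRs. They were picked because earlier results of these data had drawn attention to them. At least 1 of them is in 33.3% of 12421 tested genes, whose median log2 fold change was -0.18, against 0.03 for the genes with neither. This contrast is not matched for 3′ UTR length, and because of how the words were picked it is no independent evidence. None of the 10 genes carries the first word. The second, AAACAAA, occurs 2 times in MET, with a 3′ UTR of 2262 bases, and 1 time in EGFR, with 6011 bases. Of tested genes with a 3′ UTR of similar length, 44.7% carry that word for MET and 79.7% for EGFR. ERRFI1 and HBEGF, which fell most, carry neither in 1491 and 1456 bases. The part of these words in the changes was not tested.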
